A study of Mus musculus with 24 samples.

Results

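The hyaluronan receptor gene Cd44 and the 3 hyaluronan synthase genes Has1, Has2 and Has3 were followed in mouse retina through the slow loss of rod photoreceptors. The genes were chosen by name: a probe set (a group of array probes read as 1 value) was taken where its transcript identifier maps to 1 of the 4 genes. Each gene had 1 probe set, so the account concerns 4 of the 1246 probe sets of a focused Affymetrix array. Retinas of P347S mutant mice, a transgenic line that carries a mutated rhodopsin, the light pigment of rods, and retinas of normal (wild type) mice were compared at 4 ages, from 1 month to 4 months in steps of 1 month, to separate early, middle and late stages of rod loss. Each of the 8 groups had 3 arrays, 24 in all. The promoter of the transgene, the strain and the number of animals behind an array are not given in the sources used here, and sex is recorded as unknown. A p-value therefore measures only the spread between samples, which may be technical. Values are log2 signals, so that a difference of 1 is a doubling of signal, and the number of arrays limits their precision.

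Hyaluronan is a long sugar chain without sulfate that fills the space between cells, in the eye above all the vitreous and the matrix around photoreceptors. Synthases in the plasma membrane build it from the activated sugars UDP-glucuronic acid and UDP-N-acetylglucosamine and push the chain out of the cell while it grows. CD44 is a membrane protein that binds hyaluronan outside the cell and is tied to the actin skeleton inside it; in the retina it is known from Müller glia, where it lies in the fine processes that reach between the photoreceptors, and it is also carried by leukocytes.

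The promoters of Cd44, the member that changed most, and Has1 are shown to place these genes in the genome; the arrays measured transcripts and nothing at the promoters. RefSeq (GRCm38.p6) gave a promoter for 2 of the 4 members, from 250 bases before to 50 after the start site. The windows are chr2:102901616-102901915 for Cd44 and chr17:17855139-17855438 for Has1, both on the minus strand, written 5′ to 3′ with motif matches in capitals.
Cd44: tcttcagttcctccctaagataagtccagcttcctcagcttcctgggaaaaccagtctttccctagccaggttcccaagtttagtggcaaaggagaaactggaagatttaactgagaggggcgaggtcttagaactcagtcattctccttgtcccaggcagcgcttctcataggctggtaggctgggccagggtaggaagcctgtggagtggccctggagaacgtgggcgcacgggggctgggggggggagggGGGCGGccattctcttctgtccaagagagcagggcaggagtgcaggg
Has1: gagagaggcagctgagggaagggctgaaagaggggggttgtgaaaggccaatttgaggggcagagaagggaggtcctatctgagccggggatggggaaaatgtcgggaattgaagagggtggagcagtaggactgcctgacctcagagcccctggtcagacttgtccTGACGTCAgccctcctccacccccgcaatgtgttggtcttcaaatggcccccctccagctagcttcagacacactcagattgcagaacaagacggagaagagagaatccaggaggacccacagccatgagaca
Letters were searched on both strands for the AP-1 site TGANTCA, the cAMP response element TGACGTCA, the GC box GGGCGG and the TATA box TATAAA; the 2 matches found do not overlap another motif. Cd44 held 1 GC box at bases 4 to 9 after the start site, a motif found in 35.7% of the 32851 mouse promoters of the same length. Has1 held 1 cAMP response element, from base -83 to -76, found in 1.79% of them. The AP-1 letters (7.81% of promoters) and the TATA letters (13.6%) were in neither window.

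Before the results, 3 arrays have to be set apart. Grifin, which is known from lens fibre cells, read 11.29 in mutant retinas of 2 months replicate 2. It read 11.33 and 10.16 in normal retinas of 2 months replicate 2 and of 4 months replicate 1. In the other 21 arrays it read 5.69 to 8.77. Those 3 arrays had the highest Cd44 of their groups (9.23 in the mutant array, 8.69 and 8.19 in the normal arrays), and of all mutant arrays only the one at 9.23 was above 8.69. The 8.77 belonged to normal retinas of 1 month replicate 1, whose Cd44 of 7.40 was the highest of that group as well. Grifin was the only 1 of 8 lens markers with a named probe set, and its part in the Cd44 readings was not tested. Results for Cd44 are given with and without the 3 arrays.

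**Figure D1:**
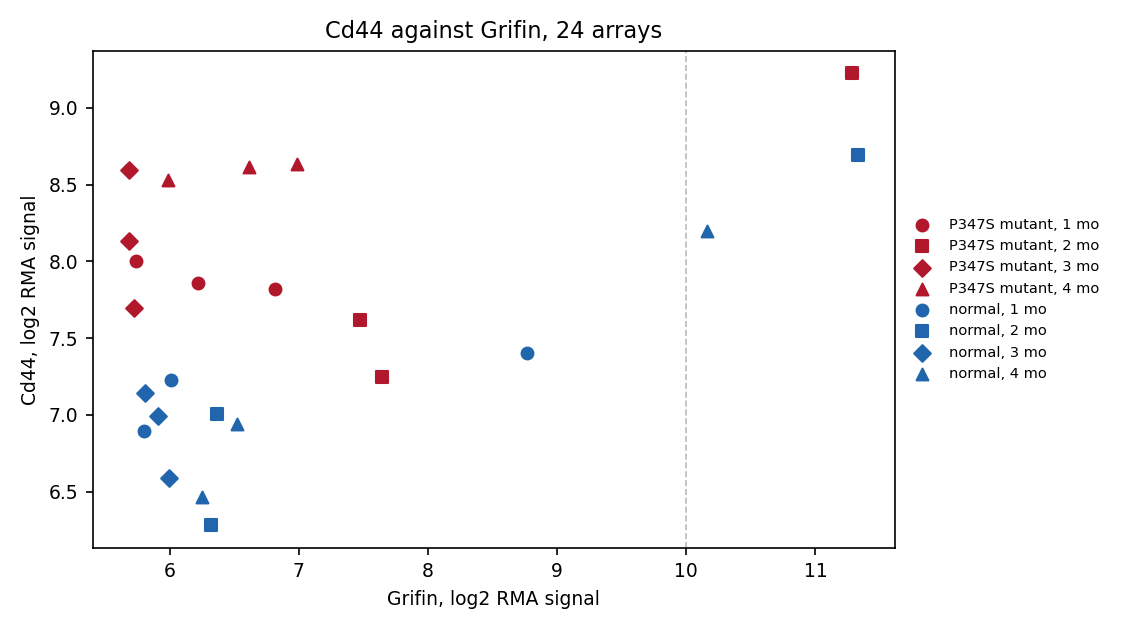
Cd44 (vertical axis) against Grifin (horizontal axis), both as log2 RMA signal, in 24 arrays; colour gives the genotype, marker shape the age, and the dashed line a log2 Grifin signal of 10. Left of the line mutant arrays run from 7.24 to 8.63 for Cd44 and normal arrays from 6.28 to 7.40; the 3 arrays right of it read 9.23 (mutant) and 8.69 and 8.19 (normal).

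Cd44 was higher in mutant than in normal retinas over the 4 ages, by 1.01 ± 0.25 on the log2 scale (SE, n = 24 arrays, adjusted p = 0.00581), which is 2.02-fold with a 95% interval of 1.41 to 2.90. None of the synthases passed the test. Cd44 was thus 1 of 4 members called, where 22.6% of all probe sets passed and 13.8% passed as higher in mutant retinas. By the signed difference, counted from the most raised in mutant retinas, Cd44 stood 3rd of 1246 probe sets. An exact permutation test of the genotype labels within each age gave p = 0.00159 for Cd44 (2-sided, unadjusted, 160000 assignments). The probe set is named for 1 of 6 curated Cd44 transcripts of RefSeq, and which splice forms it reads is not given. In whole retina more cells that carry a transcript and more transcript per cell cannot be told apart.

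At 1 month Cd44 read 8.001, 7.82 and 7.86 in mutant retinas, against 7.40, 6.89 and 7.22 in normal retinas. All 3 mutant arrays lay above all 3 normal arrays, and the mutant arrays lay close together (7.89 ± 0.09, SD, against 7.17 ± 0.26 in normal retinas). The difference was 0.72 ± 0.50 (SE, adjusted p = 0.772), where 0.321% of all probe sets passed. At 2 months the readings were 7.62, 9.23 and 7.24 in mutant retinas, against 6.28, 8.69 and 7.01 in normal retinas. Here the genotypes overlapped, and replicate 2 was the highest array of its group in both genotypes. Between arrays of equal replicate number mutant minus normal was 1.34, 0.53 and 0.24, though the numbers are not shown to pair the arrays. The difference was 0.70 ± 0.50 (adjusted p = 0.550), where 3.45% of all probe sets passed, and ± 0.28 with the replicate block (adjusted p = 0.225).

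At 3 months Cd44 read 7.70, 8.13 and 8.60 in mutant retinas, against 7.14, 6.59 and 6.99 in normal retinas. The groups did not overlap, and the mutant arrays were spread more widely than at 1 month. The difference was 1.23 ± 0.50 (adjusted p = 0.108), where 6.66% of all probe sets passed as higher. At 4 months the readings were 8.63, 8.61 and 8.53 in mutant retinas, against 8.19, 6.47 and 6.94 in normal retinas. The mutant arrays again lay close together above every normal array, while normal replicate 1, an array of high Grifin, stood far above the other two. The difference was 1.39 ± 0.50 (adjusted p = 0.0735), where 12.9% of all probe sets passed.

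**Figure D2:**
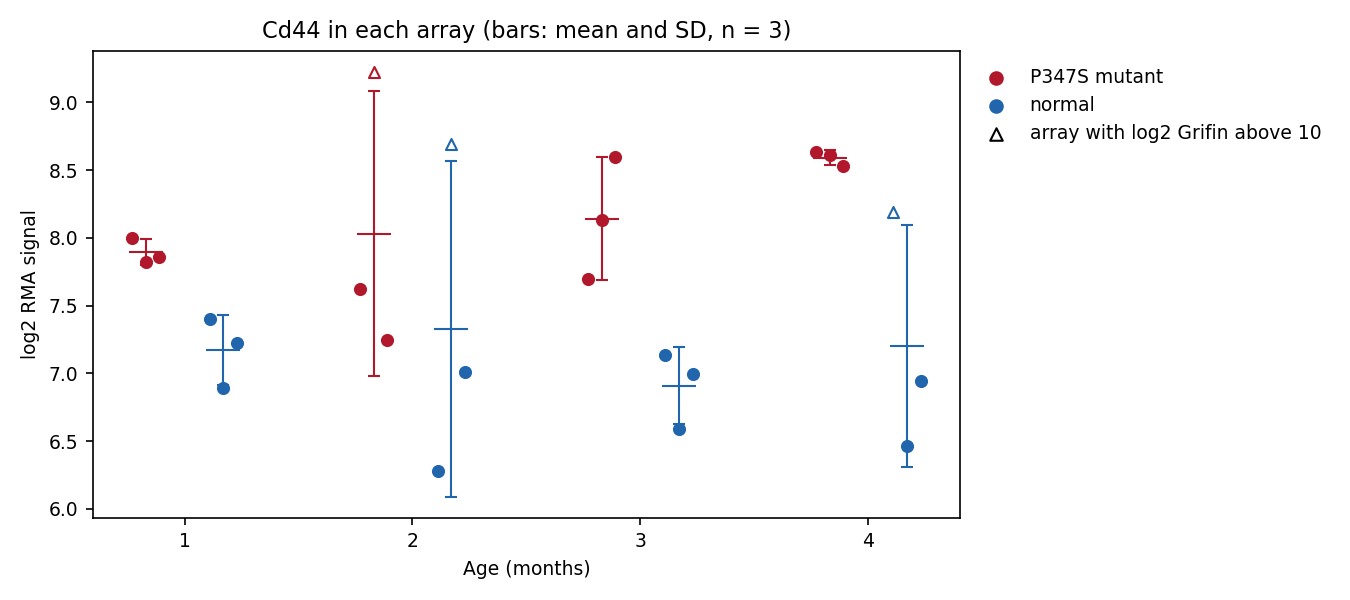
Cd44 log2 RMA signal (vertical axis) in each of the 24 arrays by age in months (horizontal axis), mutant retinas left of normal retinas at each age; bars give the mean and SD of 3 arrays and open triangles mark the 3 arrays with a log2 Grifin signal above 10. Mutant arrays lie above normal arrays without overlap at 1, 3 and 4 months, and the 3 triangles are the highest Cd44 readings of their groups.

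Without the 3 arrays the Cd44 difference over the 4 ages was 1.16 ± 0.12 (SE, n = 21 arrays, adjusted p = 2.30e-06), or 2.23-fold with a 95% interval of 1.88 to 2.65, where 18.0% of all probe sets passed. Its spread within groups was a pooled SD of 0.30 over the 21 arrays and 0.69 over the 24; the median over all probe sets was 0.13 with 24 arrays. The difference was 0.72 ± 0.22 at 1 month (adjusted p = 0.188), 0.79 ± 0.27 at 2 months (0.201), 1.23 ± 0.22 at 3 months (0.00222) and 1.89 ± 0.24 at 4 months (0.000132). These 3 arrays were known for their high Cd44, so the smaller spread without them follows in part from leaving them out, and the p-values are no independent support. Cd44 passed at 3 and 4 months here (10.9% and 9.31% of all probe sets passed at these ages, and 0.482% and 0.0803% at 1 and 2 months). At 4 months leaving out either array of high Grifin at 2 months, normal replicate 1 of 2 months or normal replicate 1 of 4 months was enough (adjusted p = 0.0238 to 0.0454). Without the 3 arrays, 2 against 2 arrays remained at 2 months and no longer overlapped (7.62 and 7.24 in mutant retinas, 6.28 and 7.01 in normal retinas). This follows from leaving out the normal array with a Cd44 of 8.69. The share of all probe sets without overlap in these arrays is not given here. In a fit of all 24 arrays with covariates for Grifin and for Dcn (decorin, of connective tissue), the difference over the 4 ages was 1.13 ± 0.12 (adjusted p = 1.26e-06). That fit also called Cd44 at 3 months (1.18 ± 0.25, adjusted p = 0.00597) and at 4 months (1.76 ± 0.24, 0.000122). With all arrays in, the calls at these ages thus depend on the model. Grifin and Dcn were chosen with earlier results of these data known, so the p-values of this fit are no independent support either. Unlike Grifin, Dcn was not the highest of its group in any of the 3 arrays. It read 4.49 in the mutant array, and 6.45 and 4.52 in the normal arrays of 2 and 4 months.

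Without those 3 arrays mutant arrays read 7.24, 8.001 and 8.63 for Cd44 as lowest, median and highest (n = 11), against 6.28, 6.97 and 7.40 in normal arrays (n = 10). Across ages the genotypes met only where mutant retinas of 2 months replicate 3 (7.24) lay below normal retinas of 1 month replicate 1 (7.40).

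Whether the Cd44 difference changes with age was tested directly. With 24 arrays the moderated F test over the 4 ages gave an adjusted p of 0.870 (0.321% of all probe sets passed), and the difference at 4 months exceeded that at 1 month by 0.67 ± 0.71 (adjusted p = 0.849, 0.241% passed). Without the 3 arrays it did so by 1.17 ± 0.32 (unadjusted p = 0.00209, adjusted p = 0.138), and the F test gave an adjusted p of 0.316. Neither passed, so a difference that widens with age is not shown. Within mutant retinas Cd44 read 0.70 ± 0.50 higher at 4 months than at 1 month (adjusted p = 0.626; ± 0.22 and 0.104 in the 21 arrays), a step that 2.65% of all probe sets passed with 24 arrays and 2.49% with 21. Within normal retinas the same step was 0.03 ± 0.50, and -0.47 ± 0.24 in the 21 arrays (adjusted p = 1.00 and 0.766), and 0 of 1246 probe sets passed in either.

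Has1, 1 of the 3 synthases, lay within a narrow band: 5.33 to 5.63 in mutant arrays and 5.36 to 5.67 in normal arrays (medians 5.41 and 5.56, n = 12 each). At 1 month it read 5.39, 5.38 and 5.37 in mutant retinas, against 5.60, 5.58 and 5.60 in normal retinas. These groups did not overlap and were the tightest of the gene (SD 0.01 in each), with a difference of -0.21 ± 0.08 (SE, adjusted p = 0.301); with array weights, which give noisy arrays less say, it passed (adjusted p = 0.0200). At 2 months the sign was opposite, 0.10 ± 0.08 (adjusted p = 0.591), with 5.42, 5.48 and 5.63 in mutant retinas and 5.36, 5.40 and 5.46 in normal retinas. At 3 months Has1 read 5.40, 5.33 and 5.48 in mutant retinas, against 5.67, 5.62 and 5.44 in normal retinas, and the groups overlapped (-0.17 ± 0.08, adjusted p = 0.141). At 4 months it read 5.55, 5.61 and 5.35 in mutant retinas, against 5.47, 5.55 and 5.57 in normal retinas, and they overlapped again (-0.03 ± 0.08, adjusted p = 0.885). The F test for a change with age gave an unadjusted p of 0.0338 and an adjusted p of 0.310. Over the 4 ages Has1 differed by -0.08 ± 0.04 (adjusted p = 0.147, 95% interval -0.16 to 0.0015), which is 0.897-fold to 1.00-fold. After a repeated quantile normalization it passed, at -0.10 (adjusted p = 0.0255).

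Has2, known as the synthase that the mouse embryo needs for its heart, read 2.78 to 3.07 in mutant arrays and 2.69 to 3.20 in normal arrays. Its mean signal of 2.92 was at percentile 9.87 of all probe sets. The deposited values carry no detection call, so a low transcript and an absent one cannot be told apart. The genotypes overlapped at every age. The difference over the 4 ages was -0.0045 ± 0.05 (SE, adjusted p = 0.953, 95% interval -0.11 to 0.10), and at single ages it ran from -0.05 to 0.04. The widest group was normal retinas of 3 months, with 2.69, 2.79 and 3.20.

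Has3, a synthase of the same family, read 3.41 to 3.86 in mutant arrays and 3.65 to 3.99 in normal arrays; its mean of 3.74 was at percentile 22.7, and the same limit holds. At 3 months it read 3.51, 3.41 and 3.76 in mutant retinas, against 3.83, 3.86 and 3.97 in normal retinas. It was lower in every mutant array, by 0.33 ± 0.10 (a log2 difference of -0.33, SE, adjusted p = 0.0379), the only call for a member at a single age in the fit of 24 arrays without covariates, weights or a block. That call was lost when any 1 of 5 of the 6 arrays of this age was left out (adjusted p = 0.0647 to 0.171, against 0.0379), after a repeated quantile normalization (0.108) and in the 6 arrays alone (0.120). At 1, 2 and 4 months the genotypes overlapped and the differences were -0.07, -0.08 and -0.02, each ± 0.10. The difference at 3 months was -0.26 ± 0.14 relative to that at 1 month (unadjusted p = 0.0829, adjusted p = 0.665), so a particular change at 3 months is not shown. Over the 4 ages Has3 differed by -0.12 ± 0.05 (adjusted p = 0.0839, 95% interval -0.23 to -0.02); the exact permutation test gave an unadjusted p of 0.0331. It passed with array weights (-0.16, adjusted p = 0.0184), without mutant 3 months replicate 3 (0.0295) and without normal 2 months replicate 1 (0.0376).

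The synthases moved little when the 3 arrays of high Grifin were left out. Over the 4 ages the differences were then -0.08 ± 0.04 for Has1 (adjusted p = 0.202), -0.0013 ± 0.05 for Has2 (0.984) and -0.11 ± 0.05 for Has3 (0.153). Has3 at 3 months kept its call (adjusted p = 0.0427).

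**Figure D3:**
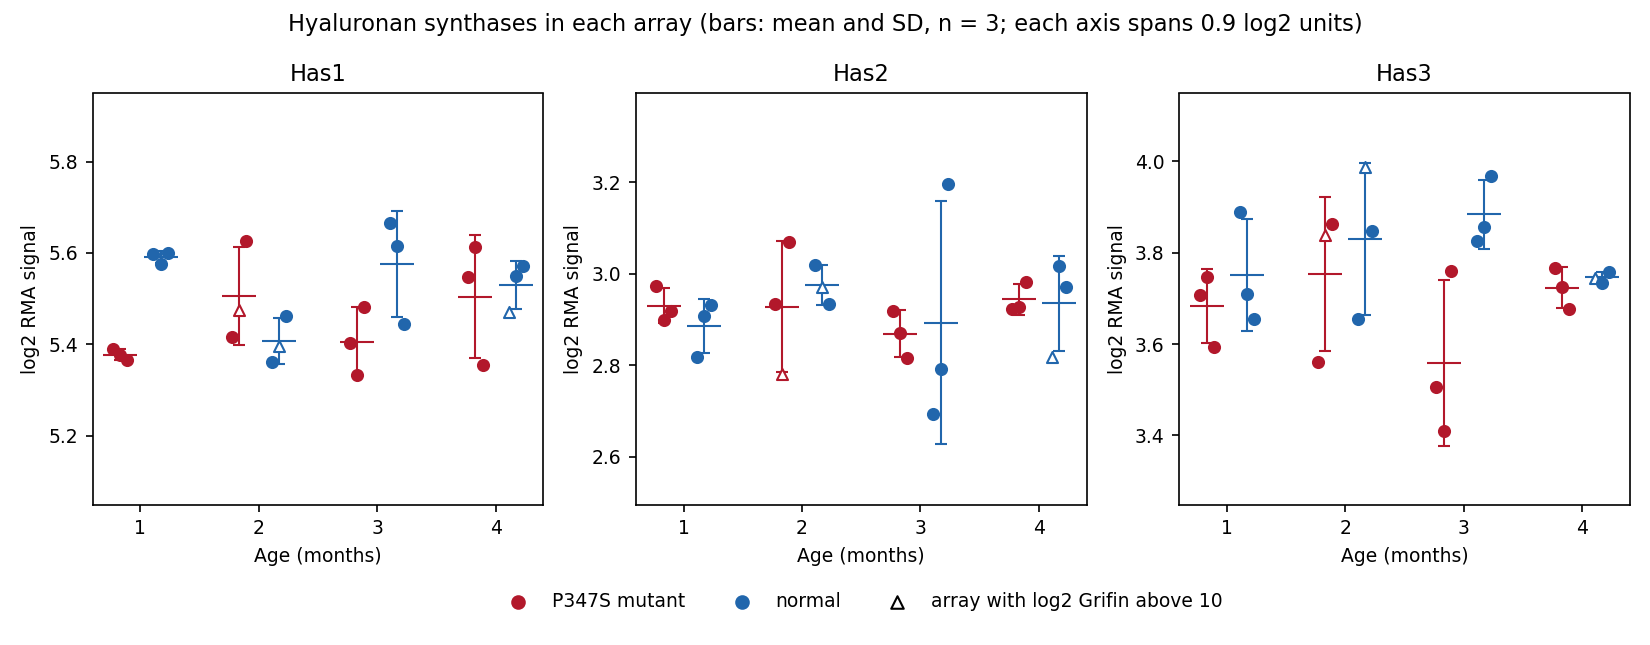
Log2 RMA signal (vertical axis) of Has1, Has2 and Has3 in each of the 24 arrays by age in months (horizontal axis), mutant retinas left of normal retinas; bars give the mean and SD of 3 arrays, open triangles mark the 3 arrays with high Grifin signal, and each axis spans the same range of 0.9. Has1 at 1 month and Has3 at 3 months are lower in all mutant arrays, and a triangle is the highest array of its group in 1 case alone, Has3 in normal retinas of 2 months.

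Counting arrays rather than testing them, 2 of the 4 members did not overlap between genotypes at 1 month (Cd44 higher and Has1 lower in mutant retinas), where 22.1% of all probe sets did not. At 2 months it was 0 of 4 against 17.4% of all probe sets. At 3 months it was 2 of 4 (Cd44 higher, Has3 lower) against 32.6%, and at 4 months 1 of 4 (Cd44) against 30.0%. At 3 months 5.38% of all probe sets passed the test as lower, as Has3 did. Between 4 months and 1 month no synthase passed within either genotype; the steps were 0.13, 0.01 and 0.04 in mutant retinas and -0.06, 0.05 and -0.0049 in normal retinas for Has1, Has2 and Has3 (unadjusted p from 0.109 to 0.961).

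**Figure D4:**
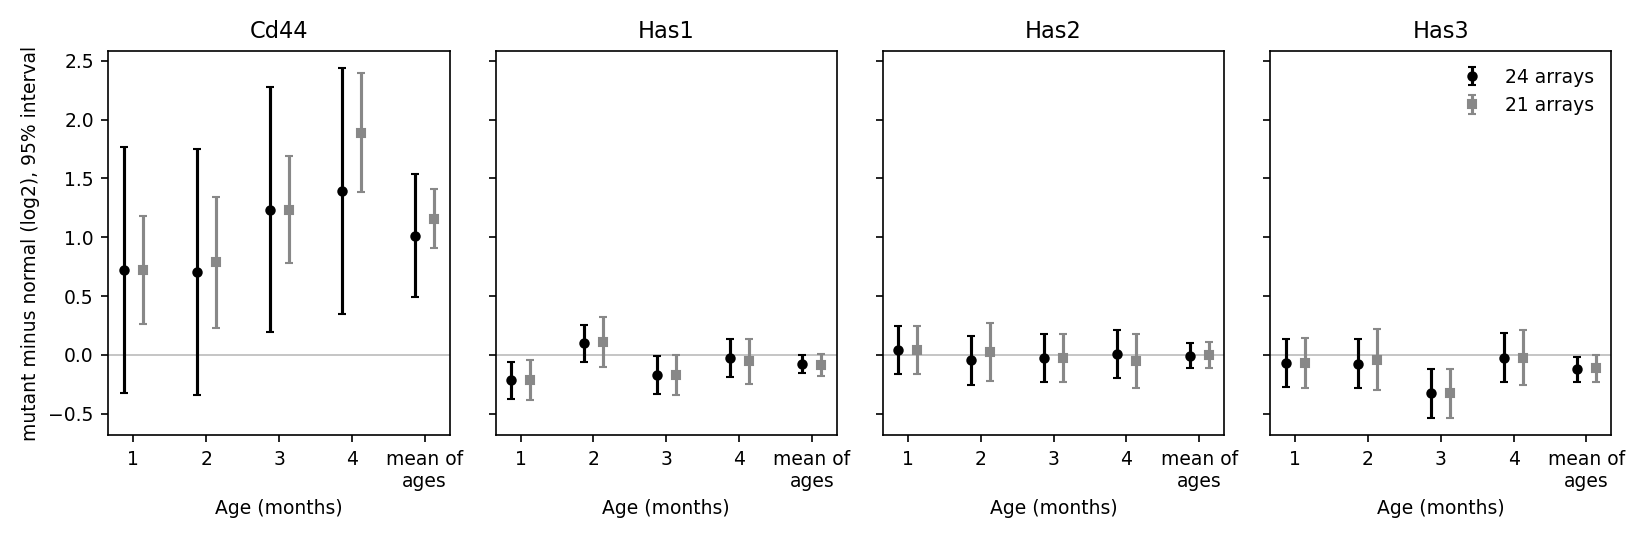
Mutant minus normal log2 difference (vertical axis) with its 95% interval for Cd44, Has1, Has2 and Has3 at each age in months and as the mean of the 4 ages (horizontal axis), from 24 arrays (circles) and from the 21 arrays without high Grifin signal (squares). The Cd44 mean of ages is 1.01 with 24 arrays and 1.16 with 21, while those of the synthases lie between -0.12 and -0.0013.

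The remaining genes of the hyaluronan pathway were read from lists by role, and a gene counts as measured where it had a named probe set. Among 9 listed receptors, Icam1, an adhesion molecule of leukocytes and glia that has been described to bind hyaluronan, was the other one with a named probe set, and it was higher in mutant retinas by 1.00 ± 0.12 (adjusted p = 3.04e-06). Of 22 matrix proteins that bind hyaluronan or its complexes 4 were measured and 0 passed, where 22.6% of all probe sets passed in either direction. The 4 were versican (Vcan, 0.09 ± 0.16), aggrecan (Acan, -0.10 ± 0.05), neurocan (Ncan, 0.15 ± 0.07) and brevican (Bcan, -0.08 ± 0.06). Their unadjusted p gave 2 under 0.05 (Acan and Ncan). Of 12 genes of breakdown 4 were measured, and Gusb, the lysosomal β-glucuronidase, was higher (0.28 ± 0.08, adjusted p = 0.0135). Over all probe sets 13.8% passed as higher. The hyaluronidases Hyal1 (0.04 ± 0.06) and Hyal2 (0.09 ± 0.05) and Hexa, a lysosomal hexosaminidase subunit (0.04 ± 0.08), did not pass.

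Of 18 genes that supply the UDP-sugars 16 were measured, 2 were higher and 1 lower in mutant retinas, a share below the 22.6% of all probe sets that passed. Pgm2, a phosphoglucomutase-family enzyme, was higher by 0.31 ± 0.05 (adjusted p = 0.000142) and Ugp2, which makes UDP-glucose, by 0.16 ± 0.04 (0.00752). Gfpt1, the first enzyme of the hexosamine route to UDP-N-acetylglucosamine, was lower (-0.21 ± 0.05, 0.00319). Ugdh, which oxidises UDP-glucose to UDP-glucuronic acid, did not pass (-0.07 ± 0.04, adjusted p = 0.273). The median difference of the 16 was 0.03, and that of all probe sets was -0.03.

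Other ligands and partners of CD44 were counted as well. Of 20 listed, 11 were measured, 6 were higher and 1 lower, with a median of 0.24, where 13.8% of all probe sets passed as higher and 22.6% in either direction. Higher were Met, the HGF receptor (0.70 ± 0.10), Lgals9 (galectin-9, 0.71 ± 0.11), Srgn (serglycin, a proteoglycan of blood cells, 0.48 ± 0.09), the EGF receptor Egfr (0.45 ± 0.05 in 1 probe set, -0.0023 ± 0.06 in the other), Fgf2 (0.34 ± 0.05) and Hbegf (0.24 ± 0.06). Erbb3, a receptor of the EGF receptor family, was lower (-0.12 ± 0.04). The probe sets of Met, Lgals9 and Fgf2 carry the suffix s, which marks probes that other transcripts may share; those of the 4 members carry no such suffix. The counts of all these lists were the same in the 21 arrays.

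**Figure D5:**
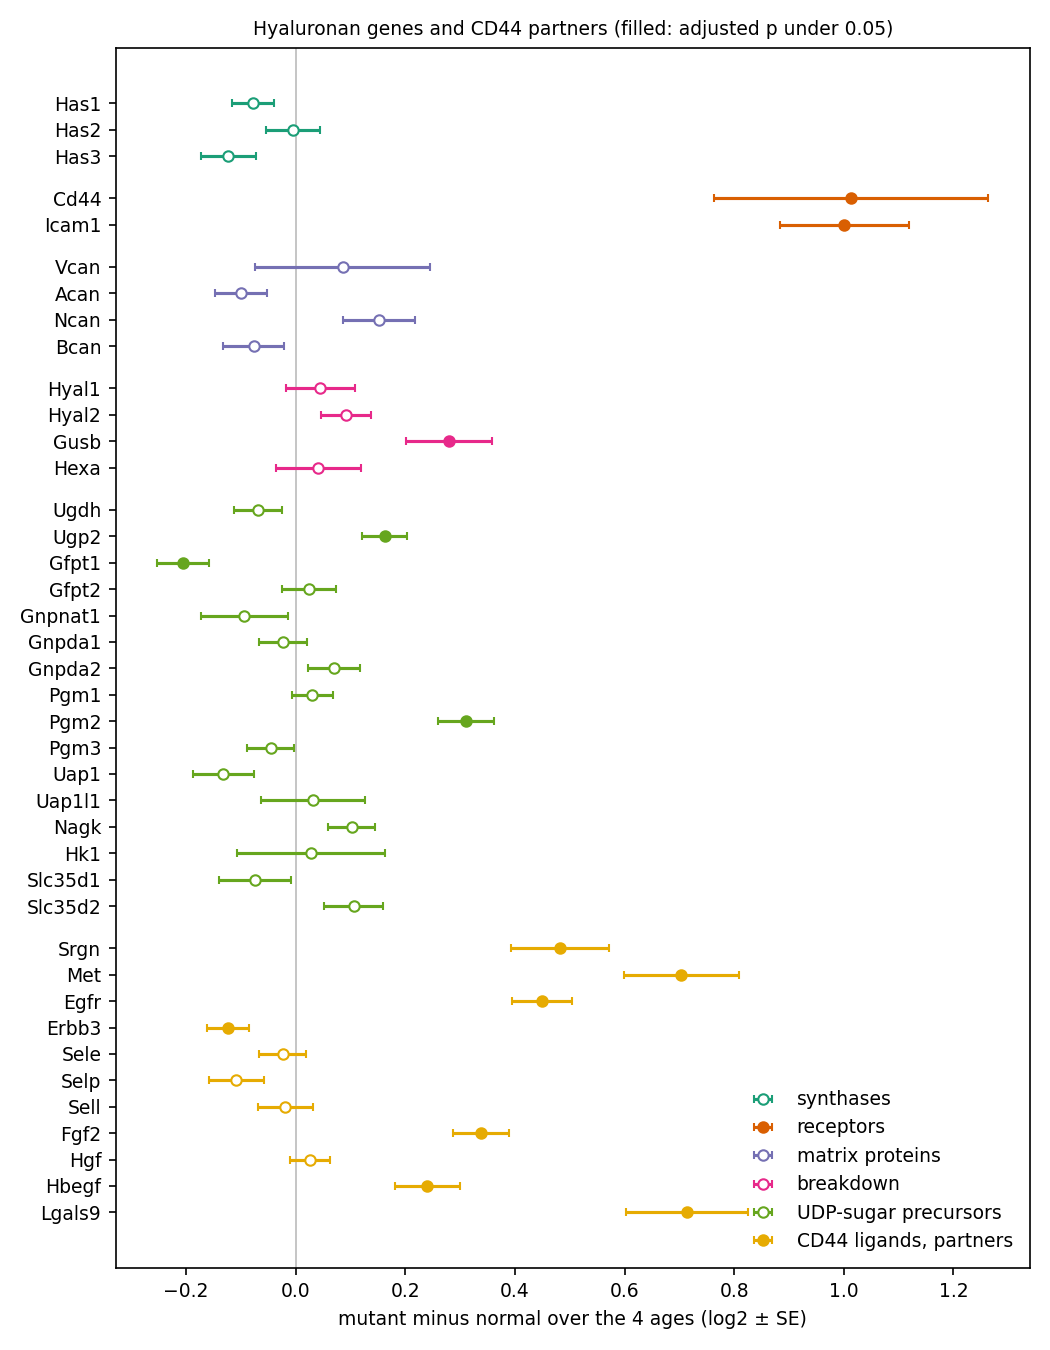
Mutant minus normal log2 difference over the 4 ages with its SE (horizontal axis) for the measured genes of 6 lists around hyaluronan and CD44 (vertical axis), 1 probe set per gene; filled points passed at an adjusted p under 0.05. Cd44 (1.01) and Icam1 (1.00) lie farthest to the right, and the synthases Has1, Has2 and Has3 lie at -0.08, -0.0045 and -0.12.

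Markers of some cells that can carry Cd44 were higher in mutant retinas. Of 13 markers of Müller glia and astrocytes, a list that holds Cd44, 4 were measured; the 3 other than Cd44, Fgf2, Vcam1 (0.81 ± 0.08) and Icam1, were higher, where 13.8% of all probe sets passed as higher. Gfap, Vim, Glul and Rlbp1 had no named probe set here, and Icam1 is also known from leukocytes. Icam1 and Fgf2 are the same probe sets that were counted above among the receptors and the partners of CD44. The mean log2 signal of the 3 other than Cd44 was 4.85 to 5.82 in mutant arrays and 4.34 to 4.73 in normal arrays. Of 13 markers of microglia and macrophages 6 were measured and 4 were higher (Csf1r 0.89 ± 0.09, Cx3cr1 0.94 ± 0.10, Adgre1 0.81 ± 0.10 and Siglech 0.40 ± 0.07), against the same 13.8%. The probe set of Cx3cr1 carries the suffix s and the counted one of Siglech the suffix x. Other probe sets of Siglech differed by 0.34 ± 0.07 (no suffix) and 0.31 ± 0.05 (suffix s). Siglec1 (-0.06 ± 0.05) and Mrc1 (-0.01 ± 0.06), markers of macrophages, did not pass. The list mean was 5.36 to 5.98 in mutant arrays and 4.94 to 5.22 in normal arrays. The part of these cells in the Cd44 difference was not tested. In the 3 arrays with high Grifin the glial mean was 5.26 in the mutant array and 4.56 and 4.44 in the normal arrays, and the microglial mean 5.68 in the mutant array and 5.08 and 4.99 in the normal arrays.

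Connective tissue genes were read by 5 of 8 markers, of which Pdgfra alone passed (0.62 ± 0.15, adjusted p = 0.00546), where 22.6% of all probe sets passed in either direction. The mean of the 5 markers was 5.24 to 6.07 in mutant arrays and 4.95 to 6.29 in normal arrays, with 5.38 in the mutant array with high Grifin and 6.18 and 5.46 in the normal ones. Of 8 endothelial and pericyte markers 4 were measured and 2 were higher, where 13.8% of all probe sets passed as higher. These were Cd34 (0.32 ± 0.07) and Mcam (0.34 ± 0.06), while Pecam1 (-0.05 ± 0.08) and Pdgfrb (0.04 ± 0.06) did not pass. Of 8 markers of other leukocytes 7 were measured and 5 did not pass, where 22.6% of all probe sets passed in either direction. Cd48 was higher and Itgae lower (median difference of the list -0.02). The adjusted p of Itgae was 0.0170, and 0.0609 in the 21 arrays. Gnb1, a transducin subunit and the only measured 1 of 6 rod markers, was lower (-0.21 ± 0.06, adjusted p = 0.0121; 0.0503 in the 21 arrays). Markers of pigment epithelium and cones had no named probe set.

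The genes whose signals ran most like Cd44 depended on the 3 arrays. Over 24 arrays the 5 highest Pearson correlations among named genes were those of Pdgfra (r = 0.84), the PDGF receptor α, Fzd1 (0.77), a Wnt receptor, Glycam1 (0.77), a mucin-like selectin ligand, Lgals9 (0.76) and the proteoglycan syndecan-2, Sdc2 (0.76). Spearman's rho was 0.73 to 0.85 for them. Sdc2 did not pass the genotype test (0.06 ± 0.07, adjusted p = 0.543), and after the group means were taken out its correlation with Cd44 was 0.87. Over the 21 arrays the highest correlations reported were those of the adhesion molecule Vcam1 (r = 0.91), the Wnt receptor Fzd7 (0.90), the Golgi membrane protein Golm1 (0.89) and the sialyltransferase St8sia3 (0.87), with rho from 0.88 to 0.92. With the group means taken out these 4 were 0.26 to 0.73. All genes of an array share its genotype, age and RNA sample, so these are descriptions and carry no p.

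For the synthases the most similar genes were Cspg4 (r = 0.85), the NG2 proteoglycan, and Fgf6 (0.77) for Has1, Mgat4a (0.59) and Ccr9 (0.52) for Has2, and Igfals (0.68) and Cd2 (0.68) for Has3, each over 24 arrays. None of these 6 passed the genotype test over the 4 ages (unadjusted p under 0.05 for Ccr9 alone).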

How the data were processed

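Total RNA of mouse retinas was extracted with Trizol and hybridised as biotinylated cRNA to an Affymetrix array, per the labels' protocols. Deposited for each probe set was its expression on a log2 scale, computed by the authors through RMA (per the submitters' processing notes); RMA's version, the arrays normalized together and any filter are not given in the sources used here. The log2 scale was checked on the values (1.9 to 14.17, array medians 5.15 to 5.34), and nothing was scaled again.

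Probe sets were named by transcript accession through a RefSeq gene table: 963 of 1246 matched 909 genes. limma 3.58.1 in R 4.3.3 was fitted to all 24 arrays with a mean for each of 8 groups (16 residual degrees of freedom). Tests were 2-sided, Benjamini-Hochberg adjusted over 1246 probe sets per contrast, at a threshold of 0.05; the fit was tested on simulated data. For single members genotype labels were also permuted within age, exactly (Python 3.11.15); with 3 against 3 arrays such a test cannot go below 0.1, and a single age was tested by limma alone. Of several probe sets of a gene the brightest was counted.

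Named genes were the 4 members, passing genes of the hyaluronan lists (the 2 of smallest p where none passed, beside values of others), the 5 genes most like Cd44 over 24 and over 21 arrays and 2 per synthase; 1 gene among these is not reported here. The remaining genes were named with their list after their values were seen. Members, lists, tests and the exclusion of 3 arrays were chosen with earlier results of these data known. Equal replicate numbers were checked for pairing. With group means removed, a mutant array and the normal array of its number and age correlated above 0.1 in 3 of 12 pairs. All 3 were of 2 months (r = 0.25 to 0.66), where replicate 2 had high Grifin in both genotypes. A signal shared by these 2 arrays alone can raise r in all 3 pairs, so the check cannot show pairing. Alternatives were median centring, repeated quantile normalization, filters on dim probe sets, eBayes with a trend or robust, array weights, single-age fits, the replicate block, Grifin and Dcn covariates, and arrays left out.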

Additional observations from a re-analysis of the deposited data

How the results depend on the processing

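Of 1236 values recomputed under 37 other settings for 36 member results, 1154 kept their sign and their side of the threshold, 21 gained a call, 7 lost one and 54 changed sign, the last all in values that did not pass. The Cd44 difference over the 4 ages passed in every setting that gives a value for it, also with each of 24 arrays left out (0.864 to 1.18, adjusted p = 0.000368 to 0.0132). Cd44 at 3 months did not pass in the main fit of 24 arrays (1.23, adjusted p = 0.108). It passed under the replicate block (0.0157), in the 6 arrays alone (0.0393) and with covariates (1.18). It also passed without the 3 arrays of high Grifin, and without these and normal 1 month replicate 1 (0.00264). With 1 array left out it was 1.01 to 1.46 and passed in 0 of 24 fits (adjusted p = 0.0560 to 0.284). Cd44 at 4 months did not pass in the main fit either (1.39, adjusted p = 0.0735). It passed under the replicate block (0.00558), with array weights (1.52), with covariates (1.76) and without the 3 or 4 arrays (1.89). With 1 array left out it was 1.03 to 1.89 and passed in 4 of 24 fits (adjusted p = 0.0238 to 0.285). Cd44 at 1 month passed in the 6 arrays alone (0.72, adjusted p = 0.00960), and in 0 of 24 fits with 1 array left out. Cd44 at 2 months passed in no setting; with 1 array left out it was 0.105 to 1.39, the lowest without mutant replicate 2, and under the replicate block adjusted p was 0.225, or 0.107 in the 6 arrays of this age alone, a setting chosen after seeing the data.

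Has1 over the 4 ages passed after quantile normalization (-0.0976). Has3 over the 4 ages passed with array weights (-0.156), under the replicate block (-0.123) and without normal 2 months replicate 1 or mutant 3 months replicate 3, in a range of -0.148 to -0.0984 with 1 array left out, and was -0.0966 without the 4 arrays. The replicate block, which pairs arrays by number, rests on a pairing that is not shown at any age. Arrays of equal number correlated at 2 months alone, where replicate 2 had high Grifin in both genotypes.

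Sign changes were small. Median centring turned Has2 over the 4 ages to 0.0210 and at 3 months to 0.00915, and Has1 and Has3 at 4 months to 0.0101 and 0.0135. Quantile normalization turned Has2 to 0.0146 over the ages and 0.0379 at 3 months, and Has3 at 4 months to 0.0206. Array weights gave 0.00771 for Has1 and -0.0160 for Has2 at 4 months. Without the 3 or 4 arrays Has2 was 0.0248 at 2 months and -0.0497 at 4 months; with covariates these were 0.0304 and -0.0341, and Has3 at 4 months 0.00488. Without the 4 arrays Has3 was 0.000895 at 1 month, its change of the difference between 1 and 4 months -0.0239, and its step in normal retinas 0.0647. The step of 4 months minus 1 month in mutant retinas turned for Has2 to -0.0181 (centring), -0.00570 (quantile), -0.00125 (weights) and -0.00355 (covariates), and for Has3 to -0.00995 (covariates). The Cd44 step in normal retinas turned to -0.00625 (centring), -0.164 (weights), -0.470 (3 arrays), -0.356 (4 arrays) and -0.374 (covariates).

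With 1 array left out, signs turned within these ranges. Has1 at 4 months ran from -0.0798 to 0.0495. Has2 ran from -0.0295 to 0.0333 over the ages, from -0.117 to 0.0268 at 2 months, from -0.125 to 0.127 at 3 months and from -0.0497 to 0.0492 at 4 months. Has3 ran from -0.116 to 0.000895 at 1 month, from -0.163 to 0.0216 at 2 months and from -0.0442 to 0.000652 at 4 months. The change of the difference between 1 and 4 months ran from -0.0942 to 0.00463 for Has2 and from -0.0231 to 0.0938 for Has3. The step of 4 months minus 1 month ran from -0.00606 to 0.0350 (Has2) and -0.00435 to 0.0733 (Has3) in mutant retinas, and from -0.0530 to 0.0639 (Has3) and -0.470 to 0.395 (Cd44) in normal retinas.

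Counts of all probe sets called moved too. At 1 month 4 passed, against 3 to 13 with 1 array left out, 28 in the 6 arrays alone and 52 with array weights. At 2 months 43 passed, against 14 to 62 with 1 array left out, 68 with array weights, 7 with covariates, 2 in the 6 arrays alone and 1 without the 3 arrays. At 3 months 150 passed, against 66 to 168 and 40 in the 6 arrays alone; at 4 months 161, against 107 to 179 and 103. The causes were not tested. Filters on dim probe sets leave no value for Has2 and Has3, fits of a single age none across ages, and the replicate block none for a step within a genotype. Signal over background is not known, which limits Has2 and Has3 most.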
